A study of Mus musculus with 6 samples.

Results

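The genes described here are the sestrins and a set of metabolic stress genes linked to p53, namely *Sesn1*, *Sesn2*, *Sesn3*, *Ddit4*, *Ephx1*, *Nqo1*, *Gpx1* and *Hmox1*. They were taken by symbol from the 19630 genes of the deposited table, and each of the 8 had 1 row. They were selected on the measured difference between irradiated and control libraries as well as on their known roles, so their levels and fold changes in that comparison are given as a description, and no test is used to support them. Cells were sorted by flow cytometry for a cyan fluorescent reporter of Nestin from dissociated cerebella of Swiss Webster mice of genotype Nes-CFP/+, and all were collected at postnatal day 5. The irradiated group had been irradiated at postnatal day 1 and the control group had not, with 3 libraries in each and the reporter allele in both. The sources used here give neither the dose nor whether a library pooled several animals, so the spread between libraries may be technical in part.

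Sestrins are stress-induced proteins that restrain the growth kinase complex mTORC1. Under low leucine, sestrin 2 binds the GATOR2 complex, which leaves GATOR1 free to switch off the Rag GTPases that bring mTORC1 to the lysosome. Ddit4, also called REDD1, reaches the same kinase through the TSC1 and TSC2 complex. The other genes encode enzymes that handle reactive molecules, and DNA damage, amino acid shortage, oxidative stress and hypoxia each induce some of the set through p53, ATF4, NRF2 or HIF1. Neural progenitors of the neonatal cerebellum divide fast and are sensitive to irradiation through p53.

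The identity of the sort was checked first. *Nes* stood at 7461 to 13492 scaled counts over the 6 libraries, *Sox2* at 6225 to 8998 and *Fabp7* at 73329 to 138256, so these progenitor and glial genes were abundant in every library. The cyclin-dependent kinase inhibitor gene *Cdkn1a*, a p53 target, stood at 289, 235 and 402 in control replicates 1, 2 and 3 and at 1469.9, 1843 and 1831 in irradiated replicates 1, 2 and 3, which checks the labels (log2 fold change 2.50, SE 0.20, limma adjusted p = 0.00372). A scaled count is a read count divided by a size factor of its library. Libraries held 30986269 to 37067530 reads over the listed genes. Markers of several cell types were present in each library. Summed over the list, 12 microglia and macrophage genes stood at 1855 to 4759 in controls and 2944 to 4981 after irradiation, 9 endothelial genes at 3527 to 4698 and 2740 to 4234, and 6 erythroid genes at 531 to 887 and 348 to 428. Astrocyte and Bergmann glia genes, 9 in all, summed to 530483 to 668660 and 402715 to 608097. Among them *Slc1a3* stood at 144794 to 257637 over the 6 libraries, far above *Nes*. Whether the glial genes came from the sorted reporter cells themselves or from other cells was not tested. The 8 choroid plexus and ependyma genes summed to 1176 to 1780 and 1944 to 4437. The choroid sum of 4437 lay in irradiated replicate 3 and rested on the transthyretin gene *Ttr*, at 2658 there, and without *Ttr* that library had the lowest sum of the irradiated ones (1865, 2035 and 1779 in replicates 1 to 3). The 7 interneuron precursor genes were all lower in the fit after irradiation (median log2 fold change -0.47), as were 7 of 8 pericyte and fibroblast genes (median -0.28), while 5 of 8 granule cell progenitor genes were higher (median 0.13) and 4 of 7 oligodendrocyte lineage genes were (median 0.02). No gene of these lists passed limma over all genes, and 1 interneuron gene, *Pax2*, passed with the replicate block. The part of these cell types in the values of the 8 genes was not tested. No marker in the table was at 0 in any library. Irradiated replicate 3 stood apart, with the lowest glial sum and the highest level of Y-linked genes.

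The RefSeq windows from 250 bases before to 50 bases after the annotated start (build GRCm38.p6) were read for 7 of the 8 genes. Those of the 3 sestrins and of *Ephx1* are shown because the sestrins differed among themselves in the data below, and *Ephx1* and *Sesn2* had the largest differences between groups. Capitals mark a p53 half-site in the downstream start of *Sesn1* (chr10:41887189-41887488, plus strand), an antioxidant response element in *Sesn2* (chr4:132510407-132510706, minus strand), the CCAAT boxes in *Sesn3* (chr9:14276051-14276350, plus strand) and the GC boxes in *Ephx1* (chr1:181017520-181017819, minus strand), each written along the gene's own strand.
Sesn1, downstream start: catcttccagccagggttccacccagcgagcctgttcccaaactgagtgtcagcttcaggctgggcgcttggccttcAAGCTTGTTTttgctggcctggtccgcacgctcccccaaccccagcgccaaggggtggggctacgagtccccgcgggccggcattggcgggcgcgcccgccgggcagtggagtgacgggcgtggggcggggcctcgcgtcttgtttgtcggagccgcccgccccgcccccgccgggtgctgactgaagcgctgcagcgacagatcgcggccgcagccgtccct
Sesn2: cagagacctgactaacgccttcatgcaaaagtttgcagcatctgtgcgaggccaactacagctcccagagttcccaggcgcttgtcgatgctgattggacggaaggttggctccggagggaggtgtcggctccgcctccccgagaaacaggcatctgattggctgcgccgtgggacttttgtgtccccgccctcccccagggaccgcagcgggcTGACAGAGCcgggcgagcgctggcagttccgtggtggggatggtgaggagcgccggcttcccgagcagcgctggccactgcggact
Sesn3: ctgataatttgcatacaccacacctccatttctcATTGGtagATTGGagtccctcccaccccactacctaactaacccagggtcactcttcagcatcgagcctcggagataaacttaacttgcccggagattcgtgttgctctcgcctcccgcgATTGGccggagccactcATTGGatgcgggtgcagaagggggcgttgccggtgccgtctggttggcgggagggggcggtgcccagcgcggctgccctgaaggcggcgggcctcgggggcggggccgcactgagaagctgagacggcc
Ephx1: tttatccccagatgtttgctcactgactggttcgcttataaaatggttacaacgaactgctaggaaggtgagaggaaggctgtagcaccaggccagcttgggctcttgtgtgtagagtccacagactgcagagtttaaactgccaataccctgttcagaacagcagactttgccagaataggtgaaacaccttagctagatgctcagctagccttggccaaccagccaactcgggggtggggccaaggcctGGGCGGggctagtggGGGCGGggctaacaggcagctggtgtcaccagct

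Motifs were searched on both strands in the windows of the 7 genes, of which *Sesn1* has 2, and in all 32851 RefSeq windows of the same length. The p53 half-site was found in the downstream *Sesn1* window alone, 173 bases before its start, and in 8.36% of all windows. The antioxidant response element TGACNNNGC, the NRF2 motif, was found in the *Sesn2* window alone, 36 bases before its start, and in 12.4% of all windows. The *Sesn3* window held 4 CCAAT boxes (CCAAT), where 37.4% of all windows held at least 1 and 3.37% held 3 or more. The *Ephx1* window held 2 GC boxes (GGGCGG), which 35.7% of all windows hold, and 1 CCAAT box, and it matched none of the p53, antioxidant, ATF4 (TGATGNAA), hypoxia (ACGTG), FoxO (GTAAACA) and E-box (CACGTG) letters. That window lies inside the gene, which is annotated up to 181020904 on the minus strand. The *Sesn3* window and the *Sesn1* windows also lie inside their genes, annotated from 14275067 and 41809935 on the plus strand. Starts further upstream in these 3 genes were not searched. E-box matches also hold the hypoxia letters. The hypoxia letters were found in the windows of *Ddit4* and *Gpx1*, and in 19.6% of all windows. The FoxO letters were found in the upstream *Sesn1* window alone, 22 bases after its start, and in 3.65% of all windows. Motif matches describe letters only, and p53 sites lie outside such windows in many genes.

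*Sesn2*, encoding a sestrin that senses leucine, was the sestrin with the large difference. Its scaled counts were 609, 537 and 364 in control replicates 1, 2 and 3 and 1217, 1267 and 739.8 in irradiated replicates 1, 2 and 3. Every irradiated library lay above every control library, and replicate 3 was the lowest of both groups. The means were 503 ± 126 and 1074 ± 291 (SD, n = 3 per group), a ratio of 2.13 and a log2 fold change of 1.09 with SE 0.25. Between libraries of the same replicate number the ratio was 1.999, 2.36 and 2.03, so the ratios within numbers were closer to each other than the levels were. Adjusted for the Y-linked level of each library, a setting chosen after seeing the data, the log2 fold change was 1.64. That level was the mean log2(scaled count + 1) of 4 Y-linked genes. It was 8.39, 9.09 and 10.18 in controls and 9.87, 10.21 and 10.87 after irradiation (replicates 1 to 3). The Y-linked level thus varied within each group and was higher after irradiation in each replicate number. Beyond that covariate the part of the Y-linked level in the *Sesn2* difference was not tested.

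*Sesn1*, a p53 target known from human cells as PA26, stood at 2306, 2186 and 2171 scaled counts in controls and at 2236, 2092 and 2031 after irradiation. The groups overlapped and the means differed by less than 5% (2221 ± 74.1 and 2120 ± 105, log2 fold change -0.07, SE 0.10). Between libraries of the same replicate number, a pairing that the labels do not give, the *Sesn1* ratio was 0.970, 0.957 and 0.936. *Sesn1* was not called with the replicate block, and with the Y-linked covariate its log2 fold change was 0.0039. Counts were per gene, so transcripts from the upstream and the downstream start could not be told apart.

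*Sesn3*, which FoxO factors induce, stood at 1828, 1654 and 1489 in controls and 1973, 2000.1 and 1563 after irradiation. The groups overlapped, with a log2 fold change of 0.15 (SE 0.13), and the ratio within replicate numbers was 1.08, 1.21 and 1.05. The log2 fold change was 0.08, 0.10 and 0.09 without control replicate 3, irradiated replicate 1 and irradiated replicate 2, and 0.27 without irradiated replicate 3. As in *Sesn2*, replicate 3 was the lowest of both groups.

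**Figure D1:**
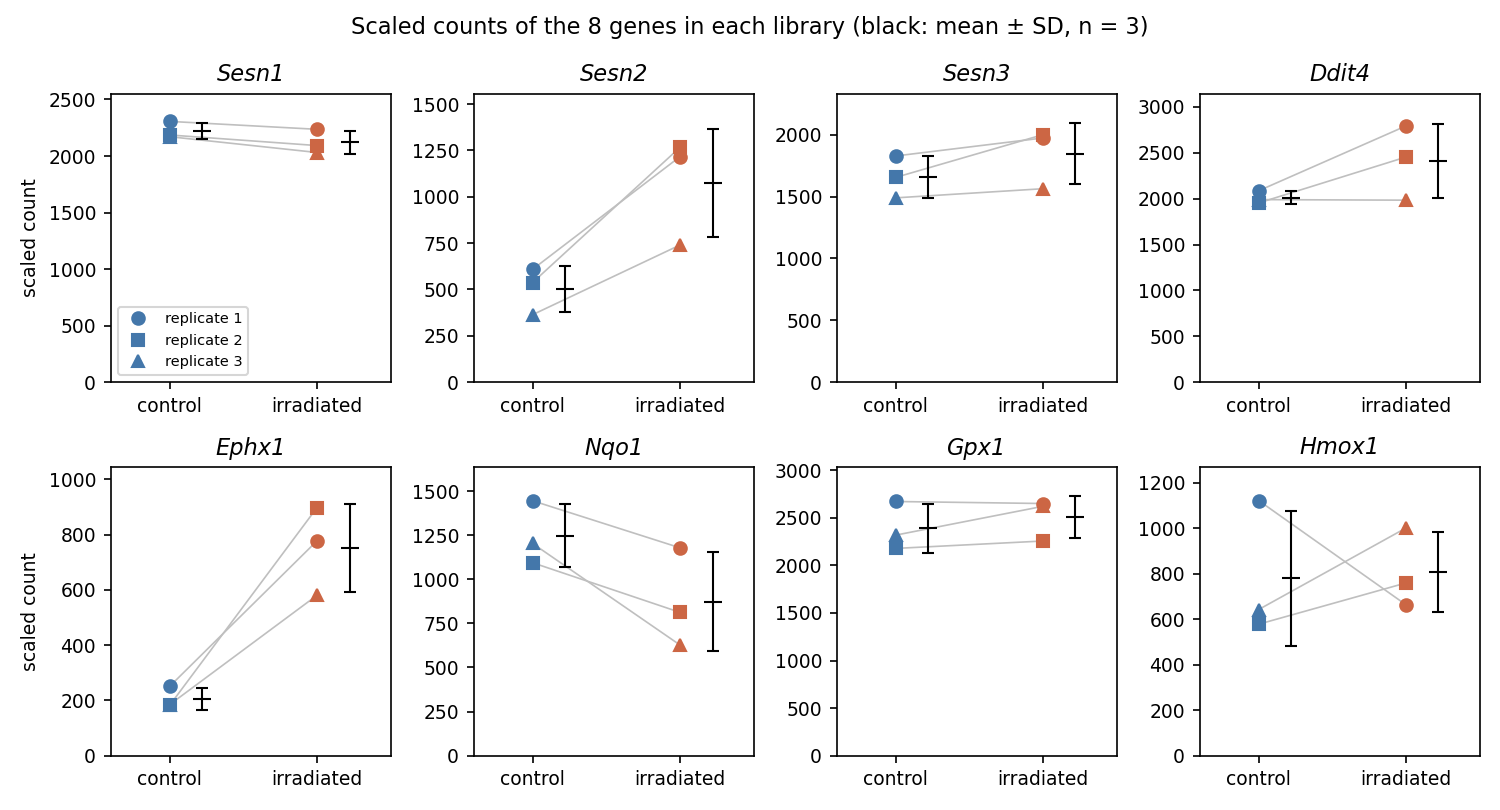
Scaled counts of the 8 genes (vertical axes, each from 0) in the 3 control libraries (blue) and the 3 irradiated libraries (orange), with a marker shape for each replicate number, grey lines joining libraries of the same number and black bars for mean ± SD. *Sesn2* and *Ephx1* are the 2 genes whose groups do not overlap, and *Hmox1* has its highest library in the control group, replicate 1 at 1122.

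Per kilobase of exon, which allows levels of different genes to be compared, *Sesn1* was the main sestrin in every library. Its share of the summed sestrin level per kilobase was 66.3%, 67.6% and 72.9% in control replicates 1, 2 and 3 and 53.9%, 51.5% and 61.8% in the irradiated ones. The *Sesn2* share was 20.04%, 19.0% and 14.0% in controls and 33.6%, 35.7% and 25.8% after irradiation, so it was higher in each irradiated library than in any control. The *Sesn3* share was 13.4% ± 0.324 and 12.6% ± 0.242 (SD, n = 3). The summed sestrin level per kilobase was 811 ± 63.3 in controls and 962 ± 119 after irradiation. Exon lengths were the union over all annotated transcripts, 15269 bases for *Sesn3* against 3982 for *Sesn1* and 3475 for *Sesn2*, and a gene that uses short transcripts is understated on this scale.

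**Figure D2:**
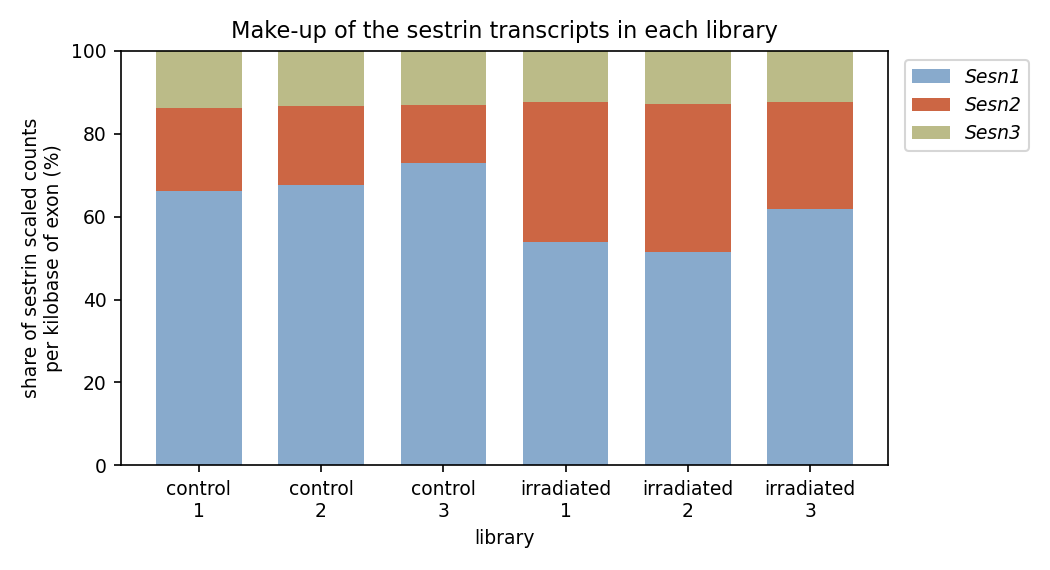
Share of *Sesn1*, *Sesn2* and *Sesn3* (stacked bars, percent) in the summed sestrin scaled count per kilobase of exon, for each of the 6 libraries. The *Sesn2* share lies between 14.0% and 20.04% in the controls and between 25.8% and 35.7% in the irradiated libraries.

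*Ddit4*, the stress-induced mTORC1 inhibitor, had scaled counts of 2086, 1953 and 1989.7 in controls and 2793, 2454 and 1984 after irradiation. Irradiated replicates 1 and 2 lay above all controls and irradiated replicate 3 lay within the control range. The log2 fold change was 0.25 (SE 0.13), and it was 0.38 without irradiated replicate 3 and 0.14 without irradiated replicate 1.

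*Ephx1*, encoding the microsomal epoxide hydrolase that converts epoxides to diols, had the largest difference of the 8 genes. Its scaled counts were 251, 182 and 185 in controls and 778, 898 and 581 after irradiation. The lowest irradiated library was above the highest control by more than the whole control range. The ratio of means was 3.65 (log2 fold change 1.86, SE 0.21), and within replicate numbers the ratio was 3.10, 4.93 and 3.15. The lowest control library held 185 *Ephx1* reads, for which counting alone gives a coefficient of variation of 7.35%.

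*Nqo1*, the NAD(P)H quinone dehydrogenase gene induced by NRF2, went the other way. It stood at 1445, 1093 and 1203 in controls and 1178, 812 and 627 after irradiation, with the groups overlapping through irradiated replicate 1. The log2 fold change was -0.55 (SE 0.22), and the ratio within replicate numbers was 0.815, 0.743 and 0.521. The summed astrocyte and Bergmann glia markers stood at 668660, 530483 and 571329 in controls and at 608097, 529766 and 402715 in irradiated replicates 1, 2 and 3. The library with the lowest *Nqo1* thus also had the lowest glial sum. That sum rested largely on *Slc1a3* and *Sparcl1*, at 144794 and 119044 in that library. All of the 9 markers except *Gfap* and *Gdf10* had their lowest value there. Of those 9 markers 8 were lower after irradiation in the fit and none passed limma over all genes. Their part in the *Nqo1* difference was not tested, and in bulk libraries fewer cells of a type and less RNA per cell cannot be told apart. Without irradiated replicate 3 the *Nqo1* log2 fold change was -0.34, and with the Y-linked covariate -0.22.

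*Gpx1*, encoding a selenium-containing glutathione peroxidase, stood at 2671, 2178 and 2318 in controls and 2649.9, 2256 and 2621 after irradiation. The groups overlapped almost fully (log2 fold change 0.07, SE 0.12).

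*Hmox1*, encoding the inducible haem oxygenase, stood at 1122, 578 and 642 in controls and 663, 759 and 1001 after irradiation. Control replicate 1 was the highest library of all, and the direction of the difference depended on single libraries. The log2 fold change of 0.09 (SE 0.25) was 0.39 without control replicate 1, and it was -0.09, -0.02 and -0.07 without control replicate 2, control replicate 3 and irradiated replicate 3. Macrophages also express *Hmox1*, and the 12 microglia and macrophage genes summed to 1855, 4759 and 3582 in controls and 2944, 4110.1 and 4981 after irradiation. Control replicate 1 had the highest *Hmox1* and the lowest sum of these markers, and their part in the *Hmox1* values was not tested.

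Per kilobase of exon in the control libraries, the order from high to low was *Gpx1* (1658 ± 176 scaled counts per kilobase, SD, n = 3), *Ddit4* (1145 ± 39.2), *Nqo1* (803 ± 116), *Sesn1* (558 ± 18.6), *Hmox1* (446 ± 170), *Sesn2* (145 ± 36.2), *Sesn3* (109 ± 11.1) and *Ephx1* (106 ± 19.98). The control ranges of the neighbours *Sesn1* and *Hmox1*, *Sesn2* and *Sesn3*, and *Sesn3* and *Ephx1* overlapped, and those of the other neighbours did not. Among the genes tested, *Gpx1* was above 94.5% and *Ephx1* above 39.4% on this scale in controls. After irradiation *Ephx1* stood at 386 ± 82.2 per kilobase and *Sesn2* at 309 ± 83.7, above *Sesn3* at 121 ± 16.0.

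**Figure D3:**
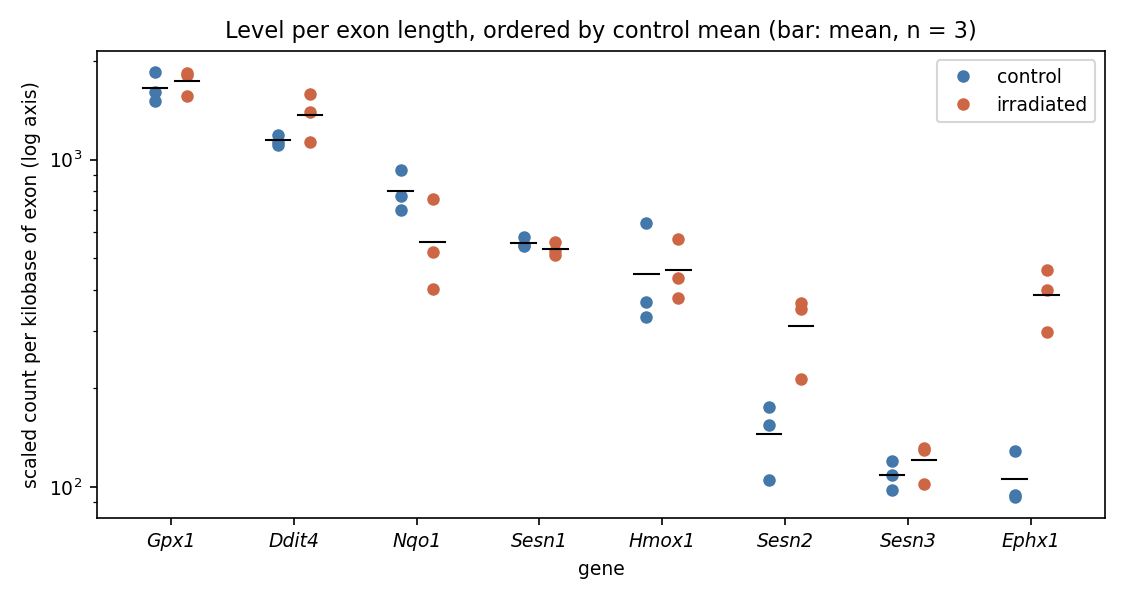
Scaled counts per kilobase of exon (vertical log axis) of the 8 genes, ordered by their control mean, with a point for each of the 3 control (blue) and 3 irradiated (orange) libraries and a bar for each mean. *Ephx1* is the lowest in controls at 106 and stands at 386 after irradiation.

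The spread between libraries of a group, which does not depend on the difference between groups, varied among the 8 genes. It is given as the pooled SD of log2(scaled count + 1). That of *Sesn1* was 0.06, lower than in all but 4.96% of the tested genes with a mean within a factor of 2 of its own. *Hmox1*, at 0.42, *Sesn2*, at 0.41, and *Nqo1*, at 0.35, were more variable than 94.8%, 93.9% and 91.9% of such genes. *Gpx1*, at 0.14, *Sesn3* and *Ddit4*, both at 0.18, and *Ephx1*, at 0.29, lay at the percentiles 46.5, 60.8, 64.9 and 75.0.

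All 8 genes were well above the minimum mean of 10 scaled counts for testing, the lowest mean being 479. In the fit 6 of the 8 were higher and 2 lower after irradiation, with a median log2 fold change of 0.12 against -0.003 over all 16674 genes tested. The groups did not overlap in 2 of the 8, against 8.83% of all genes tested. limma-trend with Benjamini-Hochberg adjustment called 1 of the 8, *Ephx1*, against 0.054% of all genes, and 2 of the 8, *Ephx1* and *Sesn2*, with the replicate number as a block, against 0.15%. These counts come from the comparison that chose the genes, so nothing is read from them.

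The genes around these 8 in the same pathways were compared next, in 10 lists with 220 distinct genes tested. limma-trend called none of the 220 at an adjusted p below 0.05, with 12 (5.45%) at an unadjusted p below 0.05 against 4.5% of all genes tested, and the lowest adjusted p was 0.507. The groups did not overlap in 24 of the 220, or 10.9%, against 8.83% of all genes tested. With the replicate block, and in each of the 11 other alternatives run, the count called was also 0.

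Among 38 other genes of the sestrin, GATOR and mTORC1 pathway, 19 were higher and 19 lower in the fit, with a median log2 fold change of 0.01. They covered the amino acid sensors, GATOR1 and GATOR2 subunits, Rag GTPases, the Ragulator scaffold, the TSC complex, mTORC1 itself and AMPK subunits. *Ddit4l*, the close relative of *Ddit4* and also an mTORC1 inhibitor, stood at 151, 112 and 184 scaled counts in controls and 232, 267 and 297 after irradiation. Its groups did not overlap, and its log2 fold change was 0.85 (SE 0.22), at a limma adjusted p of 0.507. The GATOR2 subunit gene *Sec13* stood at 4228 ± 168 and 4418 ± 336, the Rag GTPase gene *Rraga* at 4187 ± 387 and 4217 ± 212, and *Rragb* at 641 ± 107 and 768 ± 62.7.

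Of 19 other metabolic genes listed as p53 targets, 7 were higher and 12 lower in the fit (median log2 fold change -0.07), and 2 had an unadjusted limma p below 0.05. *Trp53inp1*, encoding a p53-induced nuclear and autophagy protein, stood at 3482, 4034 and 4520 in controls and 4926, 5197 and 5699.8 after irradiation, with no overlap. *Fdxr*, the ferredoxin reductase gene, lay lower in each irradiated library, at 740.1 ± 25.1 and 610.4 ± 28.9. The phospholipid transfer protein gene *Pltp* stood at 5604 ± 1341 and 5194 ± 770.

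The antioxidant lists showed medians near 0. Of 25 NRF2 targets and regulators tested 12 were higher and 13 lower (median log2 fold change -0.02), and none had an unadjusted limma p below 0.05. *Nfe2l2*, which encodes NRF2, stood at 901 ± 133 and 1156 ± 240, the cystine transporter gene *Slc7a11* at 664 ± 62.4 and 779.7 ± 61.1, the ferritin heavy chain gene *Fth1* at 12746 ± 1184 and 12501 ± 1111, and the transketolase gene *Tkt* at 10790.3 ± 1391 and 9880.3 ± 465. Of 24 genes of peroxide and superoxide removal 12 were higher and 12 lower (median 0.001). *Sepp1*, encoding the selenium carrier selenoprotein P, stood at 9104, 9345 and 8795 in controls and 7969, 6771 and 6872 after irradiation, without overlap. The plasma glutathione peroxidase gene *Gpx3* stood at 982 ± 143 and 1207 ± 171, the peroxiredoxin gene *Prdx2* at 16923 ± 1372 and 16796 ± 916, and the thioredoxin reductase gene *Txnrd1* at 8114 ± 578 and 8668 ± 1276.

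The xenobiotic list was the most one-sided by count. Of 27 genes tested 21 were lower and 6 higher in the fit (median log2 fold change -0.12), with 3 lower and 1 higher at an unadjusted limma p below 0.05. The glutathione transferase gene *Gstm1* stood at 6621, 5527 and 6277 in controls and 5349.9, 4177 and 3080.2 after irradiation, without overlap, and irradiated replicate 3, which also had the lowest glial marker sum, was the lowest. The part of the glial markers in these values was not tested. *Gstm1* has close paralogs, so its reads may be split among them. *Ephx4*, a relative of *Ephx1*, stood at 122.7 ± 24.4 and 96.7 ± 30.8, and the aldehyde reductase gene *Akr1a1* at 14650 ± 1214 and 14848 ± 668. Of 19 genes of haem and iron 9 were higher and 10 lower (median -0.02), with the haem synthesis gene *Ppox* at 1647 ± 267 and 1380.0 ± 97.1, the biliverdin reductase gene *Blvrb* at 539.6 ± 38.7 and 466 ± 39.5 and the ferritin light chain gene *Ftl1* at 8034 ± 527 and 8960.2 ± 959.6.

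Genes of the other inducers of *Sesn2*, *Ddit4* and *Sesn3* were compared last. Of 30 genes of the integrated stress response, which acts through ATF4, 16 were higher and 14 lower (median log2 fold change 0.01). The serine synthesis gene *Psat1* stood at 7689.6, 7208 and 7235 in controls and 8487, 8808 and 9854 after irradiation, without overlap, and the ATF4 target *Chac1*, which degrades glutathione, at 61.7 ± 2.88 and 40.6 ± 14.9. The amino acid transporter genes *Slc7a5* and *Slc3a2* stood at 15966 ± 2755 and 17644 ± 2052, and at 9747 ± 1312 and 10205.5 ± 572. Of 19 hypoxia genes 13 were lower (median -0.10), with *Vegfa* at 3015 ± 935 and 2106 ± 514, *Ndrg1* at 1677 ± 567 and 1132 ± 427, *Hif1a* at 6952 ± 348 and 6910.2 ± 311 and the lactate dehydrogenase gene *Ldha* at 10156 ± 1584 and 9451 ± 884. Of 15 glucocorticoid genes 11 were lower (median -0.16), with the transcription factor gene *Zbtb16* at 517 ± 71.4 and 379 ± 107, *Sgk1* at 907 ± 140.2 and 757 ± 282, the metallothionein gene *Mt2* at 2090.3 ± 497 and 1824 ± 561 and the receptor gene *Nr3c1* at 4748 ± 219 and 4198 ± 699. Of 17 FoxO factors and targets 10 were lower (median -0.02). The factor gene *Foxo6* stood at 71.3, 46.3 and 111 in controls and 114, 208 and 249.96 after irradiation (log2 fold change 1.33, SE 0.37), with the highest control just below the lowest irradiated library. *Cat*, the catalase gene, stood at 7659 ± 785 and 7625 ± 892 and *Txnip* at 6199.8 ± 3012 and 5538 ± 1953.

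**Figure D4:**
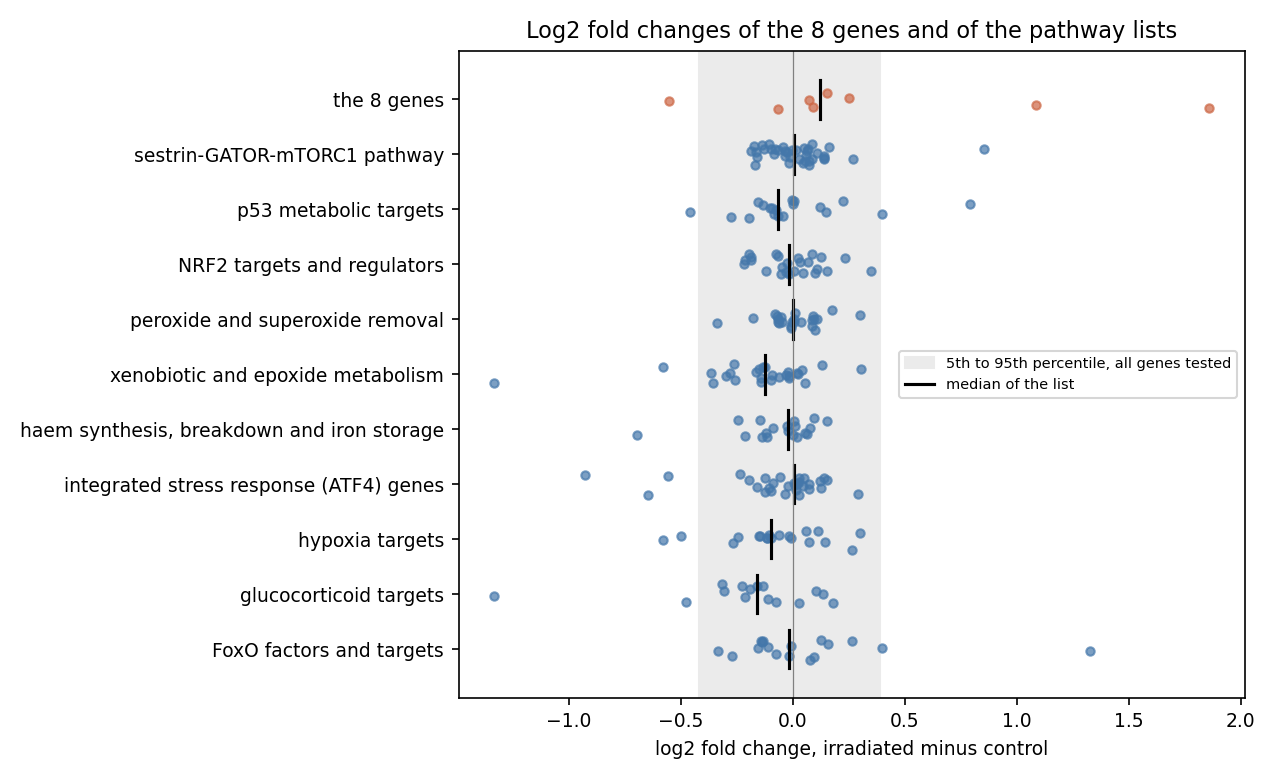
Log2 fold changes, irradiated minus control (horizontal axis), of the 8 genes (orange) and of the tested genes of the 10 pathway lists (blue), with a black bar at each median and a grey band from the 5th to the 95th percentile of all 16674 genes tested (-0.42 to 0.39). *Ephx1* at 1.86 and *Sesn2* at 1.09 lie to the right of the band and *Nqo1* at -0.55 to its left, while the list medians lie between -0.16 and 0.01.

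The genes whose levels followed each of the 8 most closely were sought by Pearson's correlation of log2(scaled count + 1) over the 6 libraries among 12606 genes. With 6 points that share libraries and group, high values are common, and they are given as a description. *Phlda3*, a p53-induced inhibitor of Akt, was closest to *Ephx1* (r = 0.991), and stood at 134 in controls and 475 after irradiation. The genes closest to *Sesn2* were *Snrnp35* (r = 0.983), *Cpsf2* (r = 0.982) and *Katnal2* (r = 0.978). *Sesn1* lay closest to the mevalonate kinase gene *Mvk* (r = 0.995) and the acetoacetyl-CoA synthetase gene *Aacs* (r = 0.994), and *Nqo1* to *Timp4* (r = 0.997), an inhibitor of metalloproteinases, and the cholesterol synthesis gene *Hmgcs1* (r = 0.996). Among the 8 genes themselves the closest pairs were *Sesn1* with *Nqo1* (r = 0.962) and *Sesn2* with *Ephx1* (r = 0.934). *Ddit4* followed *Sesn3* and *Sesn2* equally (r = 0.838 for both), and lay closest to the RNA polymerase I subunit gene *Polr1e* (r = 0.994). *Sesn3* lay closest to the ciliary transport gene *Ift122* (r = 0.999), *Gpx1* to the kinase anchoring gene *Akap12* (r = 0.982) and *Hmox1* to *Bcl10* (r = 0.993).

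In the GENCODE annotation on GRCm38 *Sesn1* (ENSMUSG00000038332.12) occupies 41809935 to 41908424 of chromosome 10, plus strand, and *Ddit4* (ENSMUSG00000020108.3) on the same chromosome from 59949669 to 59951834 on the minus strand. *Sesn2* (ENSMUSG00000028893.8) lies on chromosome 4 from 132492032 to 132510501 on the minus strand, and *Ephx1* (ENSMUSG00000038776.13) on chromosome 1 from 180976210 to 181020904 on the minus strand. *Sesn3* (ENSMUSG00000032009.7) and *Gpx1* (ENSMUSG00000063856.7) lie on the plus strand of chromosome 9, from 14275067 to 14333101 and from 108338903 to 108340343. *Nqo1* (ENSMUSG00000003849.8) lies on the minus strand of chromosome 8 from 107388225 to 107403206, and *Hmox1* (ENSMUSG00000005413.7) on its plus strand from 75093621 to 75100589. All 8 are protein-coding. *Sesn1*, *Sesn2* and *Ephx1* each overlap 1 other annotated gene on their own strand, and reads shared with it cannot be told apart.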

How the data were processed

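RNA-seq was carried out on sorted Nes-CFP-positive cells, with poly(A)-selected libraries made from 100 ng of RNA, per the labels' protocols. HTSeq and DESeq, without versions, and the build mm10 appear in the submitters' processing notes. Neither the aligner nor the strandedness is stated there or in the labels.

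The deposited table holds 1 scaled signal per gene and library, a read count divided by a library factor by the authors, with 1 added. After the 1 was taken off, 100% of values were whole multiples of 1 read within 0.01 reads. Of 19630 gene IDs 19542 matched GENCODE M21, from which exon lengths and positions were taken. Every listed gene had at least 15 reads summed over the 6 libraries, and others are not analysed here.

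limma-trend (limma 3.58.1, R 4.3.3) was fitted to log2(scaled count + 1) in 16674 genes whose mean reached 10, with two-sided p-values adjusted by Benjamini-Hochberg and a threshold of 0.05. It was tested on simulated data. Fold changes on this scale understate the change of low genes. The 8 genes, the pathway lists and the cell type markers were chosen with earlier results of these data known. In each list the rule named up to 3 genes past the threshold, the 2 with the highest mean and the 2 with the largest log2 fold change at a mean of at least 50, and for each of the 8 genes the 3 genes that followed it most closely, some of which are not printed.

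Deviations from the group means correlated by 0.305, 0.151 and 0.451 between libraries of the same replicate number and by -0.342 to 0.0503 between others. The correlations run across genes, which are not independent. Those of the same number met the criterion for pairing by number (each above 0.1), from the data and not from the labels. Deviations within a group cancel out in each gene, so the correlations depend on one another and do not establish pairing. The values given come from the unpaired fit, with a replicate block tried as an alternative. Chi-square per degree of freedom between libraries of 1 group was 14.9 to 49.8, so none looked like a repeat deposit. Alternatives were other filters, pseudocount, TMM scaling, the replicate block, leaving out each library and, added after seeing the data, a Y-linked covariate. Tests on whole reads, though planned, were not run.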

Additional observations from a re-analysis of the deposited data

How the results depend on the processing

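The count of genes called over the whole table was 9 and depended on the setting. It was 25 with the replicate block, with all 9 among them, 28 with the Y-linked covariate, with 7 of the 9, and 1 to 29 when 1 library was left out, lowest without control replicate 2 and highest without irradiated replicate 1. It was 9 with no filter, with a pseudocount of 5 and with TMM scaling, and 6 when a mean of 50 was required. The replicate block did not change the count of 0 in the pathway lists.

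Among the 8 genes, the log2 fold changes stayed within 1 SD of their values above in each setting with 4 exceptions, all with the Y-linked covariate, where *Sesn1* stood at 0.0039, *Sesn2* at 1.64, *Sesn3* at 0.38 and *Ephx1* at 2.17. Over all 12 alternatives *Sesn2* ran from 0.87 to 1.64 and *Ephx1* from 1.72 to 2.17. *Nqo1* ran from -0.79 to -0.22, and *Hmox1* from -0.09 to 0.39, changing sign. The cause of these shifts was not tested. *Ephx1* was no longer called without control replicate 1, 2 or 3, each left out singly, or without irradiated replicate 2. *Sesn2* was called with the Y-linked covariate as well as with the replicate block, and in no other setting. The pathway list medians that turned sign in some setting were small, between -0.15 and 0.08 in all settings for the FoxO, hypoxia, p53, NRF2, haem, peroxide and sestrin pathway lists.

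The 2 tests planned on whole reads were not run, because the values as deposited, with 1 added, were outside the unit accepted for such tests here. The data did not prevent them, since whole reads can be recovered once the 1 is taken off. Exact permutation of 3 against 3 libraries cannot give a two-sided p below 0.1. Depth limited the 8 genes little, since the fewest reads behind a value were 185.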
